A study of Mus musculus with 9 samples.

Results

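The genes described here handle glucose in the cell. They are the glucose carriers Slc2a1 and Slc2a2, the hexokinases Hk1 and Hk2, the phosphofructokinase subunits Pfkp and Pfkl, lactate dehydrogenase A (Ldha), and the gluconeogenic genes Pck1 and G6pc1 (written G6pc in the platform annotation). Every probe set that the annotation assigns to 1 of these 9 genes alone was taken, which gave 15 of the 22626 probe sets other than controls. A further probe set that lists Hk1 beside ribosomal protein genes was not used. The RNA came from TAMH cells, an immortal mouse hepatocyte line derived from mice that carry a transforming growth factor alpha transgene, and the labels give the strain as C57BL/6. Cells were kept with 2 mM acetaminophen (APAP), with 2 mM of its meta regioisomer (AMAP), or in control medium, for 2, 6 or 24 h. APAP has its ring hydroxyl group in the para position and AMAP in the meta position. Each of the 9 combinations was measured on 1 Affymetrix mouse array, with cells of 2 dishes behind each treatment per the labels. All groups are the same line in culture, so no other cell of the liver is represented, and no group has a replicate array.

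Glucose enters cells through facilitative carriers and is trapped as glucose 6-phosphate by hexokinases. Phosphofructokinase then commits it to glycolysis, and lactate dehydrogenase turns the resulting pyruvate into lactate. Hepatocytes of the adult liver rely on the low-affinity carrier Slc2a2 (GLUT2) and on glucokinase, and can run the pathway backwards through Pck1 and G6pc1 to release glucose. Slc2a1 (GLUT1), Hk2 and Pfkp are typical of proliferating or transformed cells and are textbook targets of growth signals and of the hypoxia factor HIF-1.

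Values are log2 units after RMA, and a difference of 1 is 2-fold. A probe set is called expressed here when its mean over the 9 arrays reached 5.66, the median of all such means. That held for 12 of the 15 member probe sets, from 7 of the 9 genes, and not for those of Pck1 and G6pc1. The labelled cell type was checked on markers. All 8 hepatocyte markers with a probe set were expressed, with albumin (Alb) at a mean of 13.06. None of the 7 macrophage, 7 stellate cell and fibroblast or 6 endothelial markers was expressed, while 3 of 4 cholangiocyte markers were. Those 3 were Krt19, Krt7 and Sox9, with Krt19 at 8.69 in APAP, 7.66 in AMAP and 6.58 in control at 2 h, and the mean over the cholangiocyte list at that time was 7.33 in APAP, 6.92 in AMAP and 6.42 in control. Over all arrays that mean was 6.42 to 7.33, and its part in the results below was not tested. The macrophage list had its highest mean, 4.42, on the 6 h APAP array, against 3.77 to 4.20 on the others. The stellate cell and fibroblast list (4.22, against 3.75 to 4.13) and the endothelial list (3.77, against 3.27 to 3.64) also peaked there. The rise was thus not particular to macrophage markers.

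The arrays did not behave alike. For dap, a bacterial control RNA, the middle minus 3′ probe set difference was -1.72 on the 6 h APAP array, -1.58 on the 24 h APAP array and -1.94 on the 24 h AMAP array. It was -0.60 to -0.44 on the other 6 arrays. The lower quartile of all values was 3.815 to 3.920 on those 3 arrays and 3.497 to 3.628 on the rest. The 5′ minus 3′ difference of the Gapdh control probe sets was 0.05, 0.10 and 0.25 on those 3 arrays, in the same order. It was 0.21 to 0.29 on the other 6. Their middle minus 3′ difference was 0.37, 0.30 and 0.36 on those 3 arrays and 0.10 to 0.24 on the other 6. Results that use any of those 3 arrays carry these differences, whose part in them was not tested.

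**Figure D1:**
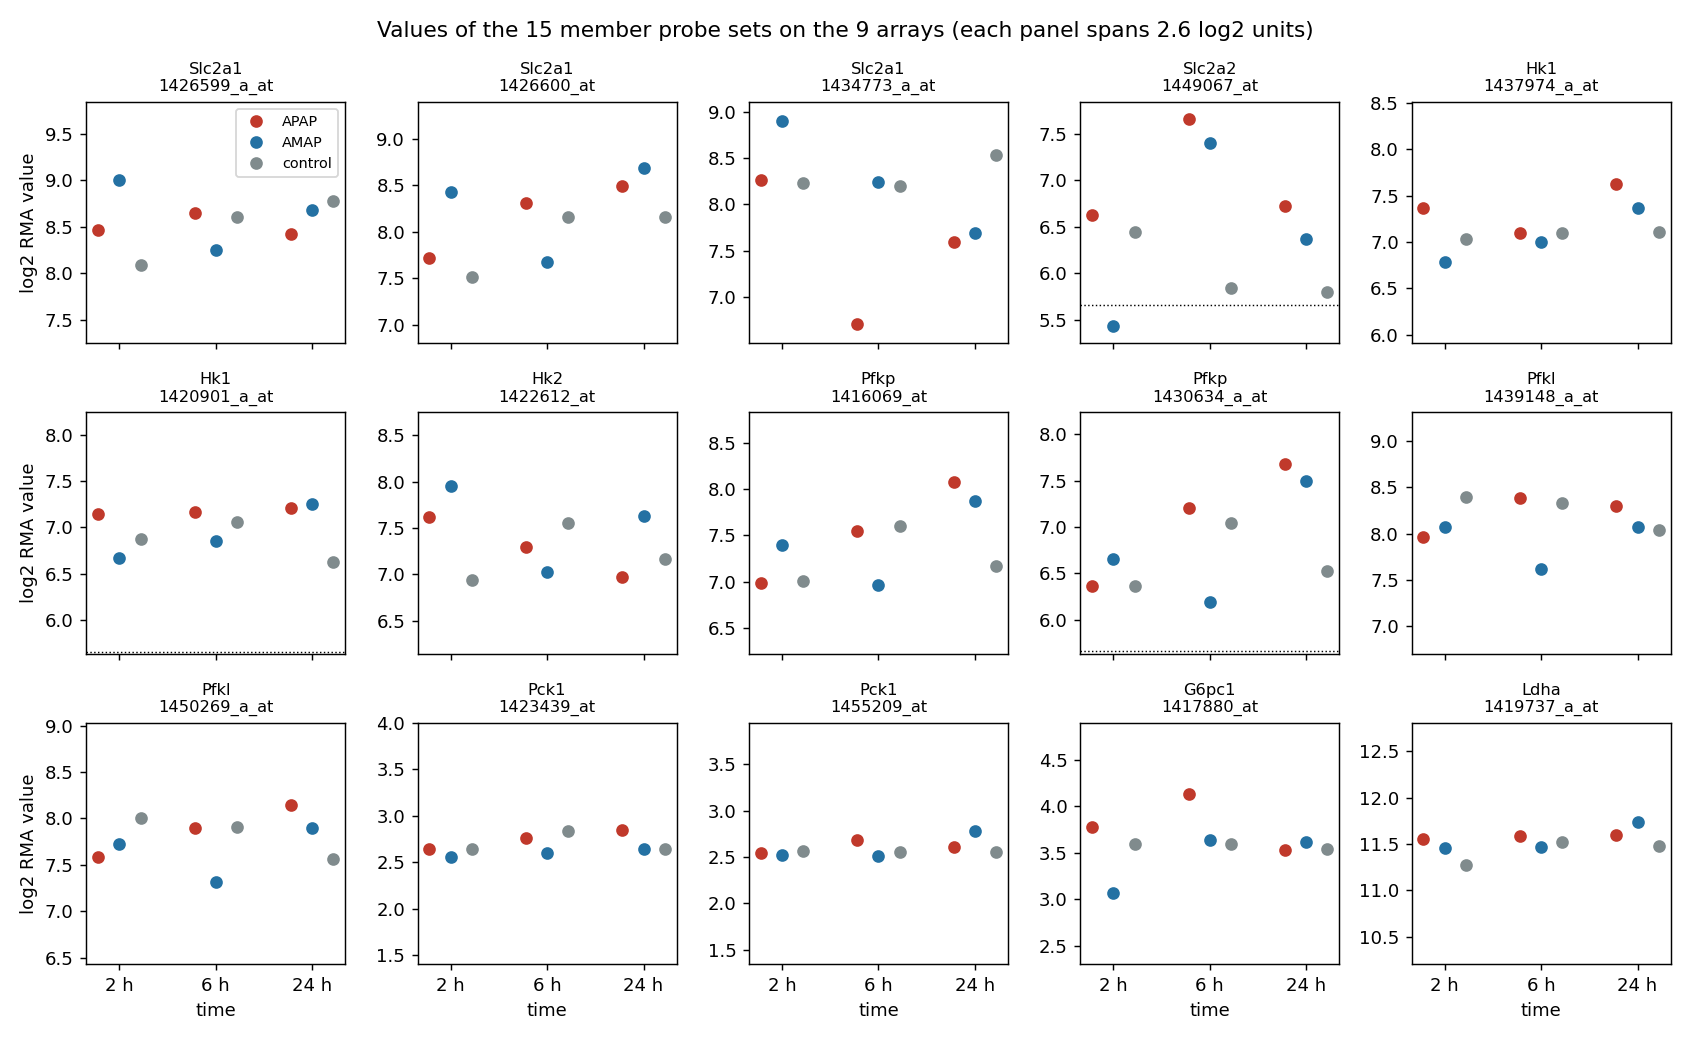
Log2 RMA values (vertical axis) of the 15 member probe sets at 2, 6 and 24 h (horizontal axis), 1 point per array for APAP, AMAP and control, left to right. Dotted lines, drawn where a panel reaches that level, mark 5.66, the median of all probe-set means. Slc2a2 peaks at 6 h in APAP (7.66) and AMAP (7.40), and Slc2a1 and Hk2 are highest in AMAP at 2 h, except for Slc2a1 probe set 1426600_at, which is highest in AMAP at 24 h (8.69).

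Slc2a1 encodes GLUT1, the high-affinity carrier that supplies basal glucose uptake in most cultured cells. Its best-detected probe set, 1426599_a_at, read 8.46 in APAP, 9.00 in AMAP and 8.09 in control at 2 h. At 6 h it read 8.65 in APAP, 8.25 in AMAP and 8.60 in control, and at 24 h 8.42 in APAP, 8.68 in AMAP and 8.78 in control. AMAP at 2 h was thus the highest and control at 2 h the lowest of the 9 arrays. The early excess of AMAP over control was seen on each of the 3 Slc2a1 probe sets, at 0.91, 0.92 and 0.67 log2, while APAP exceeded control by 0.37, 0.21 and 0.03. Control cells themselves differed by up to 0.69 between times on 1426599_a_at, with the lowest at 2 h.

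The Slc2a1 probe sets parted company later. Probe set 1434773_a_at read 6.71 in APAP, 8.24 in AMAP and 8.20 in control at 6 h, a difference of -1.49 between APAP and control. On the same arrays 1426599_a_at and 1426600_at differed by 0.05 and 0.16. At 24 h 1434773_a_at read 7.60 in APAP and 7.69 in AMAP, against 8.53 in control. On that scale APAP at 24 h differed from control by -0.93 and AMAP by -0.84. The corresponding values were -0.36 and -0.09 on 1426599_a_at, of the same sign, and 0.33 and 0.53 on 1426600_at. The 3 low readings of 1434773_a_at fall on the 3 arrays with the low dap ratio. Across the 9 arrays it correlated with the other Slc2a1 probe sets at Pearson r = 0.16 and -0.30, where those correlated with each other at r = 0.72. No single direction can therefore be given for Slc2a1 at 6 or 24 h.

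Hk2 is the inducible hexokinase that binds mitochondria, and its level followed a similar course at 2 h. It read 7.62 in APAP, 7.95 in AMAP and 6.94 in control at 2 h. At 6 h it read 7.29 in APAP, 7.03 in AMAP and 7.55 in control, and at 24 h 6.97 in APAP, 7.63 in AMAP and 7.16 in control. Hk2 was thus above control with both compounds at 2 h, by 0.68 in APAP and 1.01 (2.01-fold) in AMAP, and below control with both at 6 h, by -0.27 and -0.52. The 2 h control was the lowest of the 9 arrays, and control arrays spanned 0.61 over time. At 24 h Hk2 was lower in APAP than in AMAP, at -0.66.

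The upstream sequences of Slc2a1 and Hk2, which were high together in AMAP at 2 h, are shown with those of Ldha, a HIF-1 target whose level hardly moved, and Slc2a2, which went the other way. Each is the 250 bases before the RefSeq transcription start, from build GRCm38.p6, 5′ to 3′ on the strand of the gene. Slc2a1 is chr4:119108495-119108744 on the plus strand, Hk2 chr6:82774455-82774704 on the minus strand, Ldha chr7:46845554-46845803 on the plus strand for the more upstream of its listed starts, and Slc2a2 chr3:28697653-28697902 on the plus strand. Capitals mark ACGTG, the core of the hypoxia response element, and the GC box GGGCGG, on either strand.
Slc2a1: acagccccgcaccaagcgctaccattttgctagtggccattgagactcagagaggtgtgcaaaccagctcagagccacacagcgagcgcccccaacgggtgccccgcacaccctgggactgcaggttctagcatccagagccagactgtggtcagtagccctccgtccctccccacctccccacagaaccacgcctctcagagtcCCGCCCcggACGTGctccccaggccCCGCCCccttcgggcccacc
Hk2: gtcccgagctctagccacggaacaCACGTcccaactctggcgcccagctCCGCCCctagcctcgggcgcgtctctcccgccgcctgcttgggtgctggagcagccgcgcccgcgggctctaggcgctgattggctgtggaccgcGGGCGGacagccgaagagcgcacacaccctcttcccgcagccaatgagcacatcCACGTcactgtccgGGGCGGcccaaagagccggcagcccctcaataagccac
Ldha: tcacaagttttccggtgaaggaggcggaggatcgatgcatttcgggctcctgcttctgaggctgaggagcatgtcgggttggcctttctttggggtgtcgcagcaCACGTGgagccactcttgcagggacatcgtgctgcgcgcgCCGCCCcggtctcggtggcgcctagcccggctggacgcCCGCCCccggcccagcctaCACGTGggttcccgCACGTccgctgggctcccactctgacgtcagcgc
Slc2a2: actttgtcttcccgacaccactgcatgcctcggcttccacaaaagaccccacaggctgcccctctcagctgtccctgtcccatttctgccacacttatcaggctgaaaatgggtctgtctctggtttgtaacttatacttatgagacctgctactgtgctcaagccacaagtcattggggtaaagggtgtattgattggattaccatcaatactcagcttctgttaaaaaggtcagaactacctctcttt

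Slc2a1 held ACGTG in 1 place, 36 bases before the start, and Hk2 in 2 places, 226 and 52 bases before it. Ldha held it in 3 separate stretches, 2 of which read CACGTG, which contains ACGTG on both strands. Slc2a2 had no match to either motif. No ACGTG was found in the windows of Hk1, Pfkp, Pfkl, Pck1 and G6pc1 or of the second listed start of Ldha, and 16.6% of 32851 mouse promoter windows of the same length hold it. GGGCGG occurred 2 times in Slc2a1, 3 in Hk2, 2 in Ldha, 4 in Pfkp and 1 in Pck1, and 32.7% of windows hold it. Whether members with a motif differ in course from the others was not tested, and a match in sequence says nothing of binding in these cells.

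Slc2a2, the GLUT2 carrier of hepatocytes, had the widest range of any member, 5.43 to 7.66. At 2 h it read 6.63 in APAP, 5.43 in AMAP and 6.44 in control. At 6 h it read 7.66 in APAP and 7.40 in AMAP, against 5.84 in control. At 24 h the values were 6.72 in APAP and 6.37 in AMAP, against 5.80 in control. It was lower in AMAP than in control at 2 h by 1.01 log2, or 2.01-fold, while APAP differed from control by 0.19. At 6 h it was 3.53-fold higher than control in APAP and 2.95-fold higher in AMAP, and at 24 h the differences were 0.92 and 0.56.

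Both 6 h treated arrays also exceeded the highest control array, that of 2 h at 6.44. From high to low the order was APAP at 6 h, AMAP at 6 h, APAP at 24 h, APAP at 2 h, control at 2 h, AMAP at 24 h, control at 6 h, control at 24 h and AMAP at 2 h. Without replicates it cannot be tested whether neighbours in this order differ. The AMAP array of 6 h, with a dap difference of -0.44, is not among the 3 that stood apart, so the difference of 1.56 at 6 h does not rest on them. Slc2a2 has a single probe set, so no second reading is at hand.

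Hk1, the constitutive hexokinase, varied over 6.79 to 7.63 on probe set 1437974_a_at and over 6.63 to 7.25 on 1420901_a_at. At 2 h 1437974_a_at read 7.37 in APAP, 6.79 in AMAP and 7.03 in control, at 6 h 7.10 in APAP, 7.00 in AMAP and 7.10 in control, and at 24 h 7.63 in APAP, 7.37 in AMAP and 7.11 in control. APAP exceeded AMAP at 2 h by 0.57 and 0.47 on the probe sets, and at 24 h APAP exceeded control by 0.51 and 0.58. AMAP at 24 h exceeded control by 0.25 and 0.62. No Hk1 difference reached 2-fold. Hk1 and Hk2 thus stood in opposite order to control in AMAP at 2 h, with Hk1 at -0.24 and -0.21 and Hk2 at 1.01.

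Pfkp and Pfkl encode the platelet-type and liver-type subunits of phosphofructokinase. Pfkp probe set 1416069_at read 6.99 in APAP, 7.40 in AMAP and 7.01 in control at 2 h. At 6 h it read 7.55 in APAP, 6.97 in AMAP and 7.60 in control. At 24 h it read 8.08 in APAP and 7.87 in AMAP, against 7.17 in control. The highest values were those of the treated arrays at 24 h, and AMAP at 6 h was the lowest. The second Pfkp probe set, 1430634_a_at, followed it with r = 0.98 over the 9 arrays, and read 7.68 in APAP and 7.50 in AMAP, against 6.53 in control, at 24 h. The difference from control at 24 h was 0.91 and 1.16 in APAP and 0.70 and 0.97 in AMAP on the 2 probe sets. At 6 h AMAP differed from control by -0.62 and -0.86.

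Pfkl was lower in AMAP at 6 h on both of its probe sets, which correlated at r = 0.89. Probe set 1439148_a_at read 7.96 in APAP, 8.07 in AMAP and 8.39 in control at 2 h, then 8.38 in APAP, 7.62 in AMAP and 8.33 in control at 6 h, and 8.30 in APAP, 8.07 in AMAP and 8.04 in control at 24 h. AMAP differed from control at 6 h by -0.71 and -0.59 on the probe sets, and APAP exceeded AMAP by 0.76 and 0.58. At 2 h both compounds lay below control, by -0.42 and -0.43 in APAP and -0.31 and -0.28 in AMAP. At 24 h APAP exceeded control by 0.26 and 0.58. The subunits of the same enzyme thus shared the low reading in AMAP at 6 h, while at 24 h Pfkp stood farther above control than Pfkl with either compound.

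Ldha, which reduces pyruvate to lactate, was the steadiest expressed member. It read 11.55 in APAP, 11.46 in AMAP and 11.27 in control at 2 h. It read 11.59 in APAP, 11.47 in AMAP and 11.52 in control at 6 h, and 11.60 in APAP, 11.74 in AMAP and 11.48 in control at 24 h. All 9 values lay within 0.47 log2, and the largest difference from control was 0.28, in APAP at 2 h. Gapdh, another glycolytic enzyme, was read only by the array's control probe sets, and its 3′ probe set lay between 12.20 and 12.32 on all 9 arrays.

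The gluconeogenic members were not measured above the level of the dim probe sets. Pck1, which makes phosphoenolpyruvate from oxaloacetate, read 2.55 to 2.85 on probe set 1423439_at and 2.51 to 2.78 on 1455209_at. G6pc1, the glucose 6-phosphatase that releases free glucose, read 3.78 in APAP, 3.07 in AMAP and 3.60 in control at 2 h. It read 4.13 in APAP, 3.64 in AMAP and 3.60 in control at 6 h, and 3.53 to 3.62 at 24 h. All of these lie far below 5.65, the median of all values, so differences among them have no reading as expression. RMA narrows differences at this level.

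**Figure D2:**
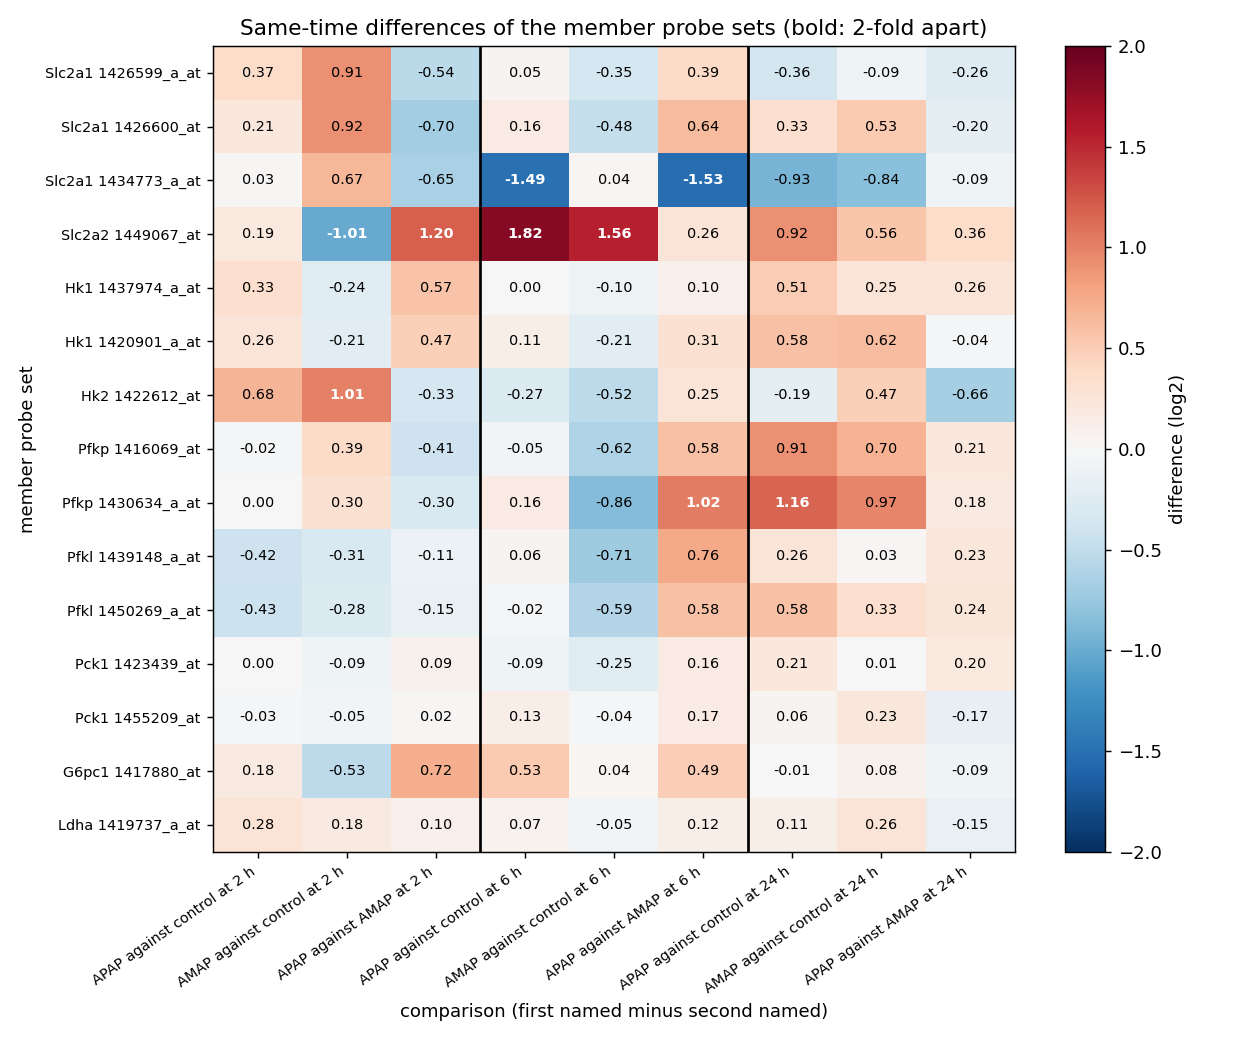
Same-time log2 differences of the 15 member probe sets (rows) in the 9 comparisons (columns), the first-named treatment minus the second, with 2-fold differences in bold. The widest differences are those of Slc2a2 at 6 h, 1.82 in APAP and 1.56 in AMAP, and of Slc2a1 probe set 1434773_a_at at 6 h in APAP, -1.49 against control and -1.53 against AMAP.

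The comparisons can also be read across the members, each against the share of all probe sets that were 2-fold apart among those with the higher array at or above 5.65. Comparisons with a common array, such as both compounds against the control of the same time, share that array and are not independent. For AMAP against control at 2 h, Hk2 and Slc2a2 were 2-fold apart, in opposite directions, or 2 of the 12 member probe sets that could be called, where 1.75% of all such probe sets were. Both lay at the threshold, at 1.01 and -1.01, and just under it stood Slc2a1 at 0.92 and 0.91. For APAP against control at 2 h 0 of 12 were 2-fold apart, against 1.98% of all, and the nearest was Hk2 at 0.68. Between APAP and AMAP at 2 h only Slc2a2 was, at 1.20, against 1.58% of all, and Slc2a1 differed by -0.54, -0.70 and -0.65 on its 3 probe sets. Of the 12 expressed member probe sets 4 were higher and 8 lower in APAP than in AMAP, with a median of -0.22. Over all 11313 expressed probe sets 48.2% were higher and 47.3% lower, with a median of 0.00. With 1 probe set per gene, 3 of the 7 expressed members were higher and 4 lower, with a median of -0.11.

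At 6 h most members read lower in AMAP than in control. Of the 12 expressed probe sets 10 were lower in AMAP, with a median of -0.42, although all expressed probe sets had a median of -0.07 and 58.7% of them were lower. With 1 probe set per gene, 6 of the 7 expressed members were lower, with a median of -0.35. All expressed genes had a median of -0.10, and 33.6% of them were higher. Slc2a2 was the exception in size and direction, and was the 1 of 12 that was 2-fold apart, against 2.79% of all. For APAP against control at 6 h Slc2a2 and Slc2a1 probe set 1434773_a_at were 2-fold apart, against 8.44% of all, and the other 10 expressed probe sets lay between -0.27 and 0.16. For APAP against AMAP at 6 h 2 of 12 were, Pfkp at 1.02 and Slc2a1 at -1.53, against 15.5% of all. Here 11 of the 12 read higher in APAP and their median was 0.35, beside 50% higher and a median of 0.00 over all expressed probe sets. With 1 probe set per gene, 7 of 7 members were higher, with a median of 0.26, beside 54.2% and 0.07 over all expressed genes. Both 6 h counts with APAP use an array that stood apart, and 2 of 12 is 16.7%, close to the background for APAP against AMAP.

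At 24 h both compounds showed higher readings of Pfkp, Hk1 and Slc2a2 than control. In APAP 9 of the 12 expressed probe sets read higher and their median was 0.42, and in AMAP 10 of 12 did, with a median of 0.40. Over all expressed probe sets 55.6% and 55.1% were higher. The array median of APAP at 24 h was 0.13 above that of control and that of AMAP 0.10 above it, and relative to these shifts the members' medians were 0.29 and 0.31, with 8 and 9 of 12 higher. With 1 probe set per gene and no such shift taken off, 5 of the 7 expressed members were higher in APAP and 6 in AMAP. Their medians were 0.26 and 0.26. Over all expressed genes 60% and 59.3% were higher, with medians of 0.12 and 0.10. One probe set, Pfkp 1430634_a_at, was 2-fold apart in APAP, against 9.16% of all, and none in AMAP, against 5.57%. Between APAP and AMAP at 24 h none was 2-fold apart, against 3.75% of all, and 6 of 12 were higher and 6 lower. Both treated arrays of 24 h had the low dap ratio.

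**Figure D3:**
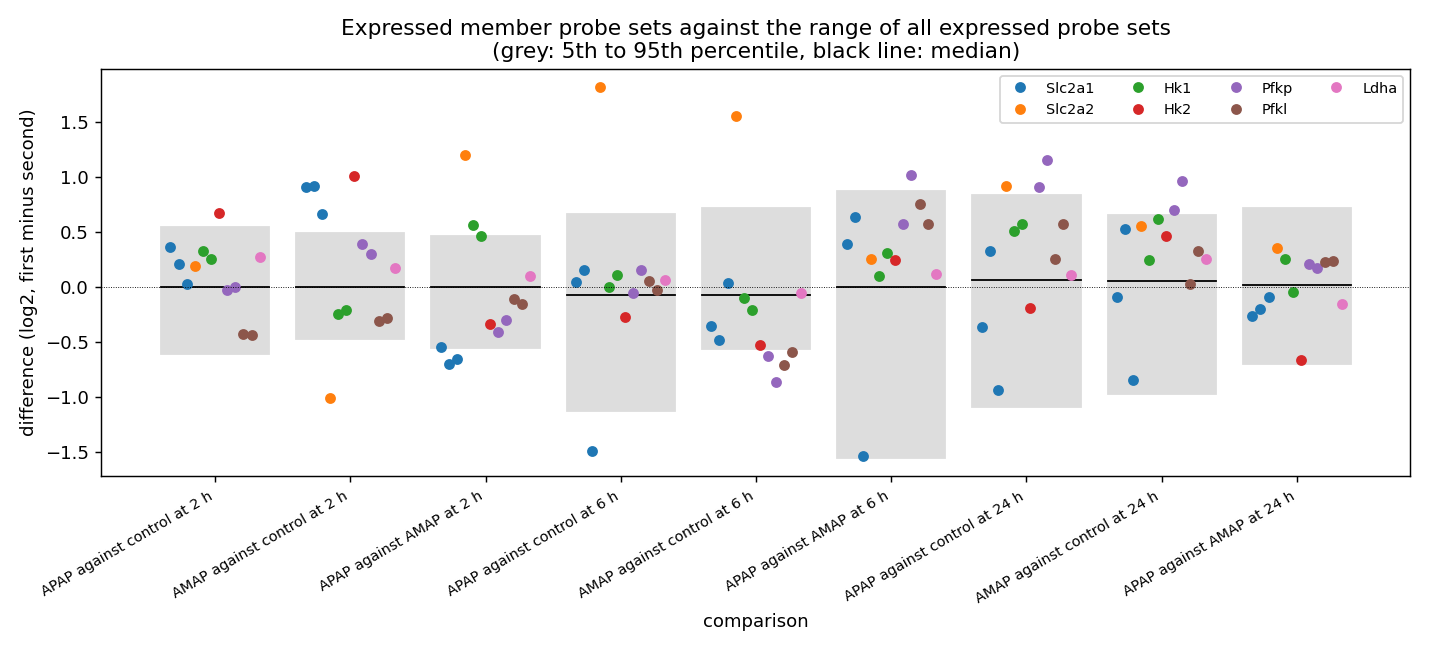
Log2 differences (vertical axis) of the 12 expressed member probe sets in each comparison (horizontal axis), coloured by gene, with grey boxes from the 5th to the 95th percentile and black lines at the median of all 11313 expressed probe sets. Boxes span -0.47 to 0.49 for AMAP against control at 2 h and -1.55 to 0.88 for APAP against AMAP at 6 h, so that the Slc2a1 and Hk2 points of AMAP at 2 h lie above their box.

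A fit across the times asked which differences were shared by 2, 6 and 24 h. limma was fitted to all 9 arrays with treatment and time, and its error is the treatment by time variation. No member probe set passed an adjusted p of 0.05 in any contrast, and neither did any of the 11313 probe sets, 0% each. At an unadjusted p under 0.05 there were 2 of 12 member probe sets for APAP against control, where 7.68% of all probe sets lay. There were 0 of 12 for AMAP against control, where 0.407% lay, and 0 of 12 for APAP against AMAP, where 3.89% lay. The 2 were Slc2a2, at 0.98 ± 0.41 log2 (SE, limma adjusted p = 0.625), and Slc2a1 probe set 1434773_a_at, at -0.80 ± 0.34 (SE, limma adjusted p = 0.625). Slc2a2 was higher in APAP at 3 of 3 times. Of the APAP arrays only that of 2 h is not among the 3 that stood apart, and there APAP differed from control by 0.19 for Slc2a2 and by 0.03 for this Slc2a1 probe set. Without those arrays there is no spread between APAP arrays, so neither shared value was judged in that setting. Leaving out 6 h gave 0.56 for Slc2a2 and leaving out 2 h gave 1.37.

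Between the regioisomers, which were compared at the same dose at 3 times, the shared difference of Slc2a2 was 0.60, APAP minus AMAP, with a 95% confidence interval of -0.33 to 1.54 (limma adjusted p = 0.867). That of Hk2 was -0.25, with an interval of -0.91 to 0.41 (adjusted p = 0.882). For Slc2a1 probe set 1426599_a_at it was -0.14, with an interval of -0.73 to 0.46 (adjusted p = 0.924). The intervals leave room for differences of either sign and of up to 2-fold or more for Slc2a2, so the data do not show that the isomers act alike on these genes. For Ldha the interval was narrower, -0.35 to 0.39 around 0.02 (adjusted p = 0.985). A second fit, which asked whether a difference grew or shrank with log2 time, called 0% of probe sets in each contrast at an adjusted p under 0.05. At an unadjusted p under 0.05 it had 0 of 12 member probe sets in each contrast, where 4.43% of all lay for APAP against control, 1.19% for AMAP against control and 2.57% for APAP against AMAP.

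Other genes of the same pathways were described from lists of glucose carriers, glycolysis, gluconeogenesis, regulators, pyruvate and lactate, glycogen and the pentose phosphate route. For these a gene was its best-detected probe set. Of the 8 other glucose carriers 6 had a probe set and 1, the intracellular carrier Slc2a8, was expressed, at -0.48 in APAP and -0.18 in AMAP against control at 2 h. Slc2a8 differed from control by -0.23 in APAP and -0.31 in AMAP at 6 h, and by 0.41 in APAP and -0.43 in AMAP at 24 h. Slc2a4, the insulin-responsive carrier of muscle and fat, was not expressed by its mean but read 1.22 higher in APAP than in AMAP at 6 h. It read 5.68 in APAP there, just over 5.65, and its second probe set differed by 0.59. The other carriers that were not expressed also read higher in APAP, Slc2a3 by 1.19, Slc2a5 by 1.43, Slc2a9 by 0.20 and Slc2a10 by 0.28. The lower quartile of all values was 3.92 on that APAP array and 3.497 on the AMAP array, and its part was not tested. No gene of any list passed limma's adjusted threshold in the shared or the slope fit.

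Of 12 other expressed glycolytic enzymes, 2 were higher and 10 lower in AMAP than in control at 6 h, with a median of -0.20, beside -0.10 for all 6707 expressed genes, of which 33.6% were higher. The low reading of Pfkp and Pfkl in AMAP at that time was thus accompanied by lower readings of most other glycolytic enzymes, as of genes at large. At 2 h the median was 0.09 in APAP and 0.09 in AMAP against control. Pfkfb3, the kinase that makes the activator of phosphofructokinase, read 7.26 in APAP, against 6.07 in control, at 2 h, a difference of 1.19. Its dimmer second probe set showed 0.94, and AMAP differed from control by 0.52 and 0.40. At 24 h the difference of APAP from control was -0.78 on the first probe set and -0.10 on the second. The slope of the first against control was -0.55 ± 0.14 log2 per doubling of time (SE, limma adjusted p = 0.911). Pfkfb2, a related kinase that was not expressed by its mean, differed by -1.05 between AMAP and control at 6 h. At an unadjusted p under 0.05 the shared fit of APAP against control held 2 of these 12, where 7.68% of all probe sets lay. They were Aldoc and Bpgm, both at -0.48, which are named because their values were seen. From the other lists Gyg, of glycogen, was also under it, at -0.68. For APAP against AMAP the regulators Stk11, at 0.53, and Hif1a probe set 1427418_a_at, at -0.75, were, where 3.89% of all lay.

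Of 7 other expressed gluconeogenic genes 6 were higher than control at 24 h with either compound. Among all expressed genes 60% in APAP and 59.3% in AMAP were higher. The medians of the 7 were 0.21 in APAP and 0.29 in AMAP, beside 0.12 and 0.10 for all expressed genes. Both treated arrays of 24 h had the low dap ratio, and their array medians lay 0.13 and 0.10 above that of control. The part of these array differences in the counts was not tested. Pck2, the mitochondrial form of phosphoenolpyruvate carboxykinase, was the gene of this list that was lower than control in APAP at 24 h. It read 7.59 in APAP, against 8.66 in control, at 2 h, and at 24 h it read 8.44 in APAP, against 9.69 in AMAP. Its dim second probe set differed between APAP and AMAP by -1.15 at 24 h. Fbp1, which removes a phosphate from fructose 1,6-bisphosphate, was not expressed by its mean, and read 1.47 higher in APAP than in control at 24 h.

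Among 12 expressed regulators, Mlxipl, the glucose-sensing transcription factor ChREBP, read 6.88 in APAP, against 8.31 in control, at 2 h, and AMAP differed from control by -0.50. At 24 h Mlxipl differed from control by -0.01 in APAP and 0.86 in AMAP. Hif1a, the inducible subunit of HIF-1, read 7.55 in APAP, against 8.68 in AMAP, at 6 h. At 24 h it read 7.18 in APAP, against 8.61 in control, on probe set 1427418_a_at. The second expressed Hif1a probe set, 1448183_a_at, read 0.71 higher in APAP than in AMAP at 6 h and -0.11 against control at 24 h, so that direction rests on the probe set. At 2 h Hif1a differed from control by 0.19 in AMAP and 0.16 in APAP on 1427418_a_at, and by -0.03 and -0.19 on 1448183_a_at. Its part in the levels of Slc2a1 and Hk2 was not tested. Irs1, an adaptor of the insulin receptor, read 6.33 in APAP and 7.98 in AMAP, against 7.89 in control, at 6 h. At 24 h Irs1 read 7.39 in APAP and 6.87 in AMAP, against 6.44 in control, so that APAP stood below control at 6 h and above it at 24 h. Control itself read lower at 24 h than at 6 h, 6.44 against 7.89, and APAP at 24 h lay below the control of 6 h. The APAP arrays of 6 and 24 h are both among the 3 that stood apart.

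Of the genes of pyruvate and lactate use, Pdk4, the kinase that shuts the pyruvate dehydrogenase complex, read 7.89 in APAP and 7.85 in AMAP, against 6.71 in control, at 2 h. It was thus above control with both compounds by a like amount, 1.18 and 1.14. At 6 h the compounds lay on opposite sides of control, APAP at -0.62 and AMAP at 0.67, and APAP was 2-fold below AMAP, at -1.29. At 24 h Pdk4 was lower in AMAP than in control, at -1.10, with APAP at 0.02. The lactate and pyruvate carrier Slc16a7, not expressed by its mean, was lower in APAP at 2 h by 1.73 log2, with AMAP at 0.33. In the glycogen list Gyg, the primer protein of glycogen synthesis, read 6.07 in APAP, against 7.46 in control, at 6 h, and Stbd1, which anchors glycogen to membranes and was not expressed by its mean, differed by -1.14 in AMAP. In the pentose phosphate list H6pd, the glucose 6-phosphate dehydrogenase of the endoplasmic reticulum, read 10.23 in APAP, against 9.20 in AMAP, at 24 h. All 7 expressed pentose phosphate genes together had medians against control of -0.02 in APAP and -0.01 in AMAP at 2 h.

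**Figure D4:**
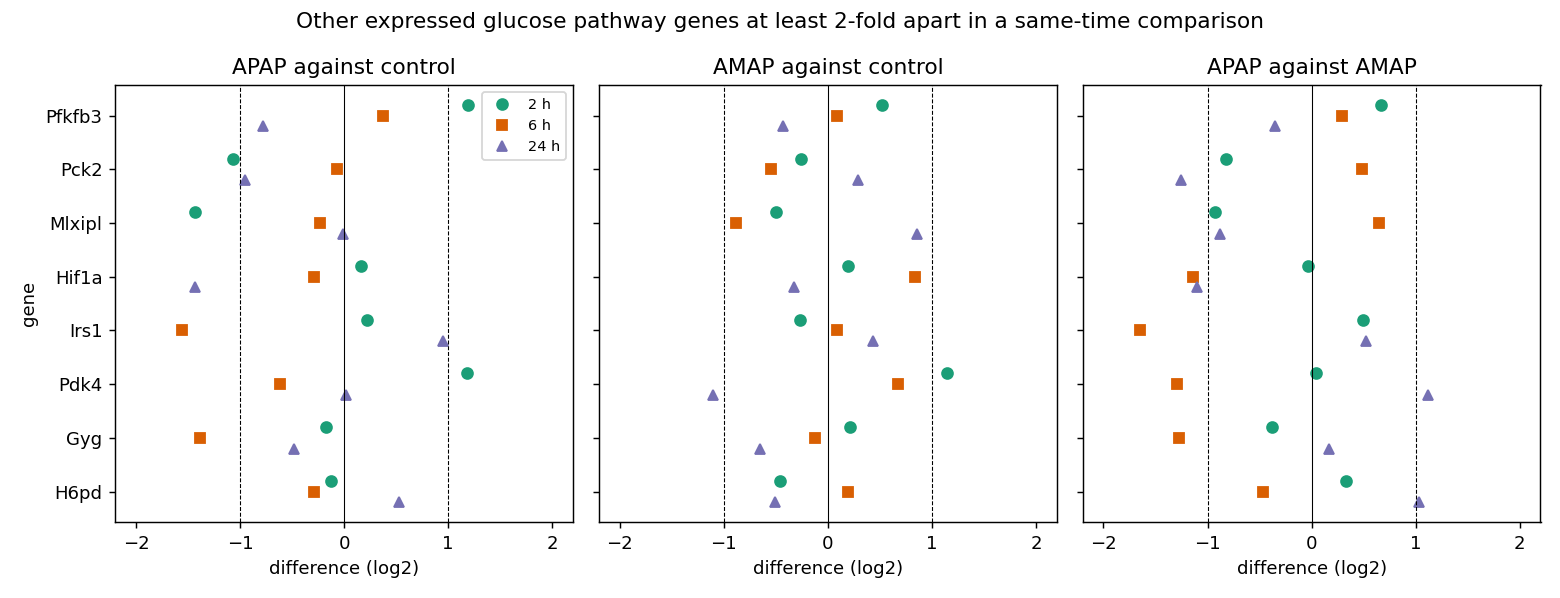
Log2 differences (horizontal axis) at 2, 6 and 24 h of the 8 other expressed pathway genes (vertical axis) that were 2-fold apart in any comparison, with dashed lines at 2-fold. Pfkfb3 and Pdk4 lie above 1 for APAP against control at 2 h, at 1.19 and 1.18, and Mlxipl and Pck2 lie below -1, at -1.43 and -1.07.

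Likeness of pattern was described by Pearson r over the 9 arrays, which share their treatments and times, among 6707 expressed genes, so that high values arise for any gene. Each gene was read by its best-detected probe set, 1426599_a_at for Slc2a1, so values for Slc2a1 hold for that probe set alone. Slc2a1 and Hk2 correlated with each other at r = 0.73, and Slc2a2 with them at -0.53 and -0.51. The genes most like Slc2a1 were Pdlim7 (0.923) and Cirbp (0.880), and those most like Hk2 were Alg13 (0.869) and Wdr45b (0.849). Slc2a2 was most like Tubgcp4 (0.883) and Cd276 (0.880), and Hk1 most like Brms1 (0.900) and Sema3c (0.897). Pfkp was most like Pmm1 (0.976) and Nudt8 (0.973), Pfkl most like Atp5a1 (0.947) and Rabl6 (0.911), and Ldha most like Tnfaip3 (0.979) and Lmna (0.955).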

How the data were processed

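RNA of TAMH cells was measured on 9 Affymetrix arrays, 1 per treatment and time. The authors deposited 1 log2 value per probe set and array. The submitters' processing notes name RMA and Affymetrix Expression Console. For its version, and for which arrays were normalized together, the sources used here give nothing. RMA equalises the probe intensities of arrays normalized together before it summarises them, so the values carry no information on total RNA per cell. The summarised values still differed between arrays, with medians from 5.59 to 5.74. Groups were taken from the sample titles.

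Of 22690 probe sets, 64 controls were left out of the tests. In GEO's platform annotation 20380 of the others have 1 symbol, 691 have several and 1555 lack one. Other pathway genes were represented by the probe set with the highest mean. A probe set was 2-fold apart at a single time where the difference reached 1 log2 and its higher value reached 5.65, the median of all values. Models were fitted to 11313 expressed probe sets with limma 3.58.1 (R 4.3.3), one of treatment plus time as a factor, with 4 residual degrees of freedom, and one of treatment by log2 time, with 3. p-values were adjusted by Benjamini-Hochberg over all of them. Arrays number 9, which limits the precision. p-values measure only the spread between these arrays.

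Named genes were all members, and in each pathway list the genes 2-fold apart in any comparison, or else the one with the largest difference, plus the 2 genes most like each expressed member. Some further genes, such as Aldoc, Bpgm and Stk11, were named outside this rule. Members and lists were chosen with earlier results of these data known. On simulated arrays of 11313 probe sets the shared fit of APAP against control found 1.5%, 28.4% and 80.3% of those changed by 0.5, 1 and 2 log2, and the slope fit 1.5%, 41.8% and 87.9% at such slopes. There a small part of the probe sets was changed, each exactly as the fit assumes, with independent normal noise. No simulated array stood apart, so these shares hold for that setting and are not the power in the real data. Promoter sequences are RefSeq's, build GRCm38.p6, and all 9 members matched. Alternatives tried were cyclic loess, a threshold of 1.5-fold, leaving dim probe sets in, median centring, the mean of all probe sets, other priors, no time block, 6 arrays, linear time and leaving out a time. Leaving out the 3 arrays that stood apart was chosen after seeing the data.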

Additional observations from a re-analysis of the deposited data

Results flagged for a closer look

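Differences of the same comparison that were at least 1.5-fold and opposite in sign at separate times are listed here. With 1 array per group the difference between times was not tested at any of them beyond the slope fit, which called none. Of 45 combinations of member probe set and contrast, 5 showed it.

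For AMAP against control, Slc2a2 was at -1.01 at 2 h and 1.56 at 6 h. Both Pfkp probe sets lay below control at 6 h and above it at 24 h in AMAP, 1416069_at at -0.62 and 0.70 and 1430634_a_at at -0.86 and 0.97. Slc2a1 probe set 1434773_a_at was at 0.67 at 2 h and -0.84 at 24 h, and the other Slc2a1 probe sets lay at -0.09 and 0.53 at 24 h. For APAP against AMAP, Slc2a1 probe set 1426600_at was at -0.70 at 2 h and 0.64 at 6 h. The AMAP array of 24 h and the APAP array of 6 h, which enter these values, had low dap ratios (-1.94 and -1.72), and their part in the changes was not tested.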

How the results depend on the processing

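The shared fit compares treatments within each time. Without time as a block, 881 probe sets had an unadjusted p under 0.05 for APAP against control, where the fit with it had 869. The number of member probe sets called in each comparison depended on the fold threshold. At 1.5-fold it was 1 for APAP against control, 5 for AMAP against control and 3 for APAP against AMAP at 2 h. It was 5 for AMAP against control and 4 for APAP against AMAP at 6 h. At 24 h it was 4 for APAP against control, 4 for AMAP against control and 1 for APAP against AMAP. In the same order 10.4%, 6.90%, 7.83%, 12.5%, 39.3%, 27.5%, 20.9% and 16.5% of all probe sets were called at 1.5-fold. For AMAP against control at 2 h the count was 1 under cyclic loess and 1 under median centring, since Hk2 was at 0.99 after centring and Slc2a2 just under 2-fold after loess. For APAP against AMAP at 6 h it was 1 under cyclic loess, where Pfkp was at 0.96, and for APAP against control at 24 h it was 2 under median centring, Pfkp at 1.02 and Slc2a1 probe set 1434773_a_at at -1.07. Counts of probe sets past the adjusted threshold of either fit were 0 in every alternative that kept more than 1 APAP array. The shared difference of Slc2a2 between AMAP and control turned to -0.22 without 6 h. That of Slc2a2 between APAP and control was 0.56 without 6 h and 1.37 without 2 h, and that of Slc2a1 probe set 1434773_a_at was -0.45 without 6 h. Without the 3 arrays that stood apart 1 APAP array is left, with 1 residual degree of freedom. The fit's residual error comes from AMAP and control arrays of 2 and 6 h alone, so its p-values for APAP are not used. Between AMAP and control that probe set, at -0.04 over all arrays, turned to 0.36 without 24 h and to 0.36 without those 3 arrays, both from 2 and 6 h alone. The cause of these changes was not tested. No called member difference changed sign under cyclic loess or median centring. Signal near background limits Pck1 and G6pc1.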
